A study of Mus musculus with 2 samples.

Results

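A cluster of miRNA hairpins on the mouse X chromosome lies inside an intron of Clcn5, and its mature miRNAs were read in the newborn retina at mean levels from 1842 CPM (counts scaled to a common library size of 1e6 counts) down to 1.43 CPM. The members were taken by name as miR-188-5p, miR-362-5p, miR-362-3p, miR-500-3p, miR-501-5p, miR-501-3p, miR-532-5p, miR-532-3p and miR-660-5p. Of these 9, 8 were rows of the count table, among 1358 mature miRNAs in all, and miR-660-5p was not analysed here. miR-188-3p and miR-500-5p, the remaining arms of the same hairpins in the table, are given beside the members but are not counted with them. The study sequenced small RNA from the retina at postnatal day 0 in CD-1 mice, which are wild-type and outbred, under a title on miR-216b, Foxn3 and amacrine cells. It held 1 group of 2 libraries, replicate 1 and replicate 2, with no treatment and no altered genotype. Nothing in the labels ties the replicates to separate animals or litters, so the SDs measure the spread of these libraries, which may be technical. The p-values of all tests, between miRNAs within a library and between the libraries, cover counting error only.

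A miRNA hairpin is cut out of a longer transcript, often an intron of a protein-coding RNA, and trimmed to a short duplex of a 5p and a 3p arm. One arm is usually kept in the Argonaute protein and the other is mostly lost, and the kept arm finds its target RNAs mainly through its seed, bases 2 to 8 from the 5′ end. Clcn5 encodes ClC-5, a chloride/proton exchanger of endosomes best known from the proximal tubule of the kidney, where its loss causes Dent disease. The host messenger RNA was not measured in these libraries. Mature miRNAs are all of nearly the same length, so CPM needs no length correction, but the yield of adapter ligation differs between sequences and is part of every ratio between different miRNAs below.

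The 5 hairpins of the analysed members were laid out on GRCm38 with the annotations of RefSeq and GENCODE M21. The hairpin of miR-660-5p was not laid out. All 5 lie on the minus strand of chromosome X within a span of 10815 bases (7237683 to 7248497), and no exon of Clcn5 overlaps any of them. They sit in a single intron of 103648 bases (7213011 to 7316658), which is spliced out of 3 of the 5 annotated Clcn5 transcripts. The other 2 transcripts start downstream of the hairpins, at 7188714 and 7188673, and do not contain them. In the order of transcription come Mir532 (7248402 to 7248497), Mir188 (7247989 to 7248056), Mir362 (7241982 to 7242046), Mir501 (7241243 to 7241351) and Mir500 (7237683 to 7237774). Gaps of 345 bases between Mir532 and Mir188 and of 630 bases between Mir362 and Mir501 make these close pairs, whereas Mir188 and Mir362 are 5942 bases apart and Mir501 and Mir500 are 3468 bases apart.

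The hairpin sequences are shown because the levels below turn on which hairpin and which arm gave the reads. They are from RefSeq on GRCm38.p6, 5′ to 3′, with the 5p arm and then the 3p arm in capitals, and the 5p arm of Mir532 is marked where its deposited read lies.
Mir532: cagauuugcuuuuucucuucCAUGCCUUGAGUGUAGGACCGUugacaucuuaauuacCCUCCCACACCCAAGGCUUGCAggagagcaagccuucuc
Mir188: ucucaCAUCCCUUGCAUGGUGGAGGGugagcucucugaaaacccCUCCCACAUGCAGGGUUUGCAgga
Mir362: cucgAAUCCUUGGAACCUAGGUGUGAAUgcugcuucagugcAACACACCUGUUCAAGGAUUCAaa
Mir501: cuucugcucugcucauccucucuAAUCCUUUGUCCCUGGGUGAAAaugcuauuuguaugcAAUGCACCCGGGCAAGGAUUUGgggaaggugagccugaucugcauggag
Mir500: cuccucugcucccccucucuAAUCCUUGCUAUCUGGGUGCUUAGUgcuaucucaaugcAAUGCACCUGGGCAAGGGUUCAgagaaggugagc

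The mature arms fell into related groups. Compared base by base from the 5′ end without gaps, miR-500-3p and miR-501-3p were identical at 18 of 22 bases and differed as U9C, G18A, C21U and A22G (miR-500-3p base first, position counted from its 5′ end). They share the seed AUGCACC, shown in capitals with that of the other arms.
miR-501-3p: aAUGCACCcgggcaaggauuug
miR-500-3p: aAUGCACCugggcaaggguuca
The 5p arms of Mir362 and Mir500 share the seed AUCCUUG, and that of Mir501 differs from them at the last seed base.
miR-362-5p: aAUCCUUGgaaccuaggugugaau
miR-500-5p: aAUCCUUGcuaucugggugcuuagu
miR-501-5p: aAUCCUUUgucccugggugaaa
miR-188-5p and the read of miR-532-5p, from the hairpin pair at the start of the cluster, were identical at 14 of 21 bases but have different seeds. The miR-532-5p read is printed in DNA letters as deposited.
miR-532-5p: cATGCCTTgagtgtaggaccgt
miR-188-5p: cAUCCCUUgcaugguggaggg
The seeds of the remaining members were not shared with another arm of the cluster as annotated. Even so, miR-362-3p was identical to miR-500-3p at 17 of 22 bases and to miR-501-3p at 15 of 22.
miR-362-3p: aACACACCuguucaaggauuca
miR-532-3p: cCUCCCACacccaaggcuugca
Across all rows of the table with a RefSeq sequence (1152 of 1358), 1 further miRNA shared a seed with a member. This was miR-329-3p, a miRNA of the imprinted Dlk1-Dio3 region, which has the seed ACACACC of miR-362-3p.

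The libraries held 8337903 and 8118208 counts, so the upper limit of a miRNA with a count of 0, set at 3 counts, was 0.36 and 0.37 CPM (counting error only). As a check of the tissue, 5 miRNAs of retina and neurons (miR-9-5p, miR-182-5p, miR-183-5p, miR-96-5p and miR-124-3p) summed to 398217 and 419768 CPM. Of these, miR-9-5p had 1884432 and 1854127 counts in replicates 1 and 2, whereas miR-124-3p had 5845 and 4843. The sum therefore says little about miR-124-3p. Of 12 markers of other tissues, miR-205-5p of surface epithelium and miR-223-3p of myeloid cells were at 0 in both libraries. The 4 markers of pigment epithelium and lens summed to 4528 and 3869 CPM, mostly from miR-204-5p (31547 and 24309 counts in replicates 1 and 2). Of the other 3, miR-184-3p had 6154 and 7057 counts, miR-211-5p had 50 and 43, and miR-205-5p was at 0. This sum therefore says little about miR-211-5p and miR-205-5p. The 2 markers of vessels summed to 1027 and 905 CPM, and those of blood, muscle and liver to 20.7 to 90.5 CPM per list. Which retinal cells held the cluster's miRNAs was not tested, and in whole tissue fewer cells of a type and less RNA per cell cannot be told apart.

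A pair of arms, miR-532-5p and miR-501-3p, carried nearly all reads of the 8 members analysed. miR-532-5p was at 1752 CPM in replicate 1 (14607 counts, exact 95% interval 1724 to 1780) and at 1932 CPM in replicate 2 (15685 counts, 1902 to 1963). Its mean of 1842 ± 127 CPM (SD, n = 2) gave it rank 51 of 1358. miR-501-3p, which has been described at synapses as a regulator of the glutamate receptor subunit GluA1, was at 506 CPM in replicate 1 (490 to 521) and 534 CPM in replicate 2 (518 to 550). That is a mean of 520 ± 19.9 CPM and rank 99. miR-532-5p exceeded miR-501-3p in both libraries, by log2 ratios of 1.79 and 1.86 (mean 1.82 ± 0.045, 3.54-fold).

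The third member in order of level was far below this pair. miR-362-5p stood at 38.4 CPM in replicate 1 (320 counts) and 34.6 CPM in replicate 2 (281 counts), and its mean of 36.5 ± 2.66 CPM had rank 254. miR-501-3p exceeded it 14.2-fold (log2 ratio 3.83 ± 0.16, SD, n = 2). The levels of these 3 members did not overlap between any pair of them in either library.

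Below these, 3 members were held at similar levels near 10 CPM. miR-362-3p, the other arm of Mir362, was at 9.12 CPM (76 counts) and 9.24 CPM (75 counts) in replicates 1 and 2. miR-188-5p, known from hippocampal neurons as a regulator of neuropilin-2, was at 9.83 CPM (82 counts) and 7.39 CPM (60 counts). miR-532-3p, the other arm of the leading hairpin, was at 7.44 CPM (62 counts) and 8.25 CPM (67 counts). The exact 95% intervals of the 3 overlapped in each library, and miR-188-5p was the highest of them in replicate 1 and the lowest in replicate 2. The log2 ratio of miR-362-3p over miR-188-5p was -0.11 in replicate 1 and 0.32 in replicate 2, and that of miR-188-5p over miR-532-3p was 0.40 and -0.16, so no order could be read.

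The last members were read only a few times. miR-501-5p was at 1.68 CPM (14 counts, 0.918 to 2.82) in replicate 1 and 2.34 CPM (19 counts, 1.41 to 3.65) in replicate 2. miR-500-3p was at 1.14 CPM (9.5 counts, 0.575 to 2.21) and 1.72 CPM (14 counts, 0.943 to 2.89). Their intervals overlapped in both libraries, and the log2 ratio of 0.45 ± 0.027 between them had adjusted p values of 0.572 and 0.524 (exact binomial test). The fraction of 0.5 in the replicate 1 count of miR-500-3p was matched by one in miR-501-3p (4215.5 counts). This is how a read split between the near-identical arms would appear, so the level of miR-500-3p could move with the rule for shared reads, while miR-501-3p held 346-fold as many counts (log2 ratio 8.44 ± 0.30).

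All 28 pairs of members were compared within each library by an exact binomial test, two-sided, against equal counts, and p-values were adjusted over the pairs by Benjamini-Hochberg. A pair was called if its ratio had 1 sign and an adjusted p below 0.05 in replicate 1 and in replicate 2, and if its mean log2 ratio exceeded 2 SD. By this rule 24 pairs were called, 4 of them among the 7 pairs of neighbours in the order of levels. The pairs not called were those among miR-362-3p, miR-188-5p and miR-532-3p, and that of miR-501-5p and miR-500-3p. The members therefore stood on 5 distinguishable steps: miR-532-5p, miR-501-3p, miR-362-5p, the 3 near 10 CPM and the 2 near 1 to 2 CPM. A pair not called is not shown to be equal. Outside the cluster the rule was applied only to the 2 arms of single hairpins, as given below. The number of pairs called therefore has no background here and is not shown to be particular to these members.

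**Figure D1:**
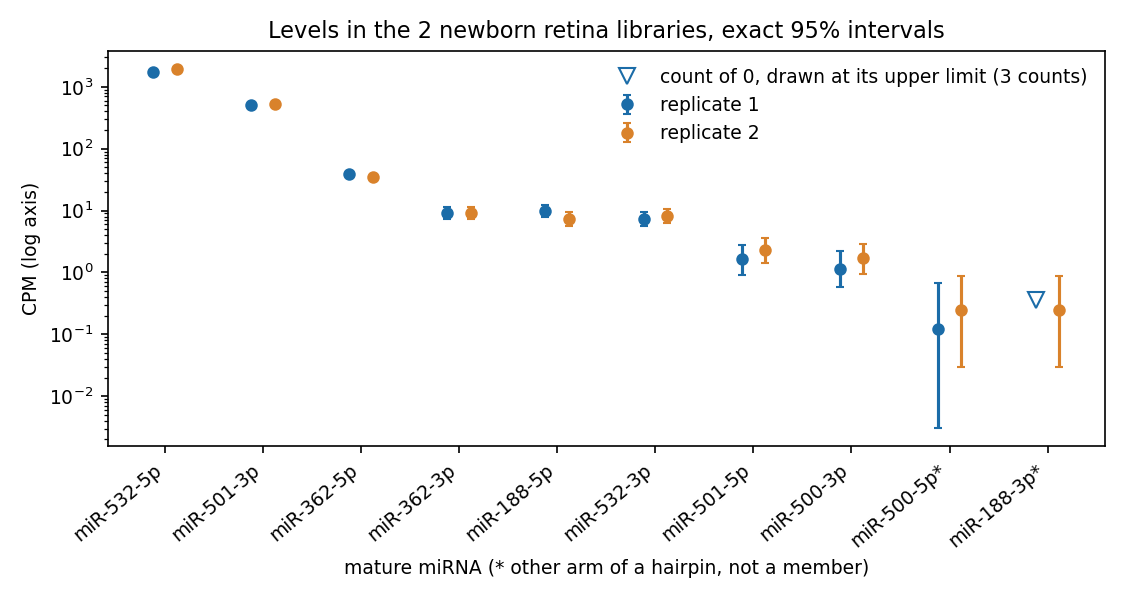
CPM on a log axis for the 8 members and 2 other arms (marked *), in replicate 1 (blue) and replicate 2 (orange), with exact 95% binomial intervals; the open triangle is a count of 0 drawn at its upper limit of 0.36 CPM. The points fall from 1752 and 1932 CPM for miR-532-5p to 1.14 and 1.72 CPM for miR-500-3p, and miR-362-3p, miR-188-5p and miR-532-3p overlap between 7.39 and 9.83 CPM.

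The members are set beside the whole table here by counts alone, with no test of the difference. All 8 were detected in both libraries, beside 68.0% of all 1358 miRNAs. A mean of at least 10 CPM was reached by 3 of 8, beside 26.9% of all, at least 100 CPM by 2, beside 13.3% of all, and at least 1000 CPM by 1, beside 5.45% of all. The median member was at 8.89 CPM and the median miRNA of the table at 0.73 CPM. Together these 8 members, without miR-660-5p, held 19386 counts in replicate 1 and 20534 in replicate 2. That is 0.233% and 0.253% of the libraries (mean 0.243% ± 0.014). Of the counts of the 8, miR-532-5p held 75.9% ± 0.733, miR-501-3p 21.4% ± 0.455, miR-362-5p 1.51% ± 0.20 and the other 5 the rest.

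Neighbouring hairpins of the one intron differed widely in level. Summed over both arms, Mir532 gave 1759 and 1940 CPM in replicates 1 and 2, and Mir188, 345 bases further along the transcript, gave 9.83 and 7.64 CPM. This is a ratio of 179 in replicate 1 and 254 in replicate 2. In the other close pair it was the later hairpin that was higher, since Mir501 gave 507 and 536 CPM and Mir362 gave 47.5 and 43.9 CPM, a ratio of 10.7 and 12.2. Mir500, the last hairpin, gave 1.26 and 1.97 CPM, and its relative Mir501 exceeded it by 403-fold and 272-fold. The read levels of these 5 hairpins therefore did not rise or fall steadily along the transcript, and close hairpins differed. Those with similar arms, Mir501 and Mir500, did not have similar levels. Whether position, spacing or sequence bears on the level was not tested.

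**Figure D2:**
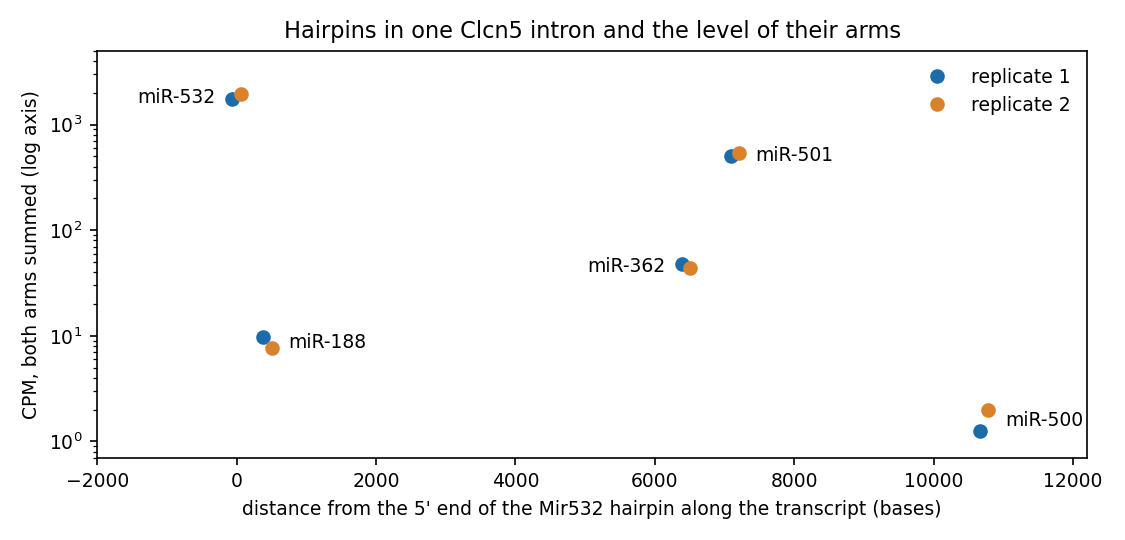
Summed CPM of both arms (log axis) of the 5 hairpins against their distance in bases from the 5′ end of Mir532 along the direction of transcription, with replicate 1 in blue and replicate 2 in orange (points offset sideways for clarity). The paired neighbours Mir532 and Mir188 at the left differ by 179-fold and 254-fold, and Mir500 at the right is the lowest at 1.26 and 1.97 CPM.

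The arm with more reads differed between hairpins. The first 3 along the transcript, Mir532, Mir188 and Mir362, gave mostly 5p reads, and the last pair, Mir501 and Mir500, gave mostly 3p reads. All 5 were called by the rule used for pairs of members, applied here over all 312 hairpins that had rows for 5p and 3p and no fewer than 10 counts over them in each library. Of those 312, 89.4% were called, so a called difference between arms is the common state and not particular to this cluster. A ratio of at least 4-fold in both libraries was found in 4 of the 5, beside 77.2% of the 312.

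Mir532 and Mir501 were strongly one-sided, in opposite directions. Mir532 had 14607 counts of the 5p arm and 62 of the 3p arm in replicate 1, and 15685 and 67 in replicate 2. The log2 ratio of 5p over 3p was 7.87 and 7.86 (mean 7.86 ± 0.0059), or 233-fold, and the 3p arm made up 0.423% (exact 95% interval 0.324 to 0.542) and 0.425% (0.33 to 0.54) of the hairpin's reads. Mir501 had 14 counts of the 5p arm and 4216 of the 3p arm in replicate 1, and 19 and 4333 in replicate 2. Its log2 ratio was -8.18 and -7.80 (mean -7.99 ± 0.27), so the 3p arm was 254-fold higher. The sizes of these ratios exceeded those of 79.8% and 80.4% of the 312 hairpins.

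Mir362 had the smallest log2 ratio between its arms among the 5 hairpins in both libraries, although the wide interval of Mir500, given below, overlaps it. Its 5p arm had 320 and 281 counts and its 3p arm 76 and 75, so the 3p arm held 19.2% (15.4 to 23.4) of the reads in replicate 1 and 21.1% (16.9 to 25.7) in replicate 2. The log2 ratio of 1.98 ± 0.12 (adjusted p = 1.93e-36 and 7.01e-29, exact binomial test) was smaller in size than in 82.4% of the hairpins tested. The arms carry different seeds, AUCCUUG and ACACACC. With its seed relative miR-329-3p, at 3.48 and 2.59 CPM, the seed ACACACC reached 12.2 ± 0.543 CPM, of which 75.2% came from miR-362-3p.

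The arm ratios of Mir188 and Mir500 rested on few counts. For Mir188 the 5p arm had 82 counts and the 3p arm 0 in replicate 1, so the 5p arm was at least 27.3-fold higher against a limit of 3 counts per library, a bound that leaves out the counting error of the 5p arm. The exact 95% interval of that ratio starts at 21.7. In replicate 2 the counts were 60 and 2, a ratio of 30.0 with an exact 95% interval of 7.95 to 253. Mir500 had 1 count of the 5p arm against 10 of the 3p arm in replicate 1 (rounded from 9.5) and 2 against 14 in replicate 2. Those are ratios of 10.0 (1.42 to 434) and 7.0 (1.61 to 63.5), with adjusted p = 0.013 and 0.0047 in the exact binomial test.

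**Figure D3:**
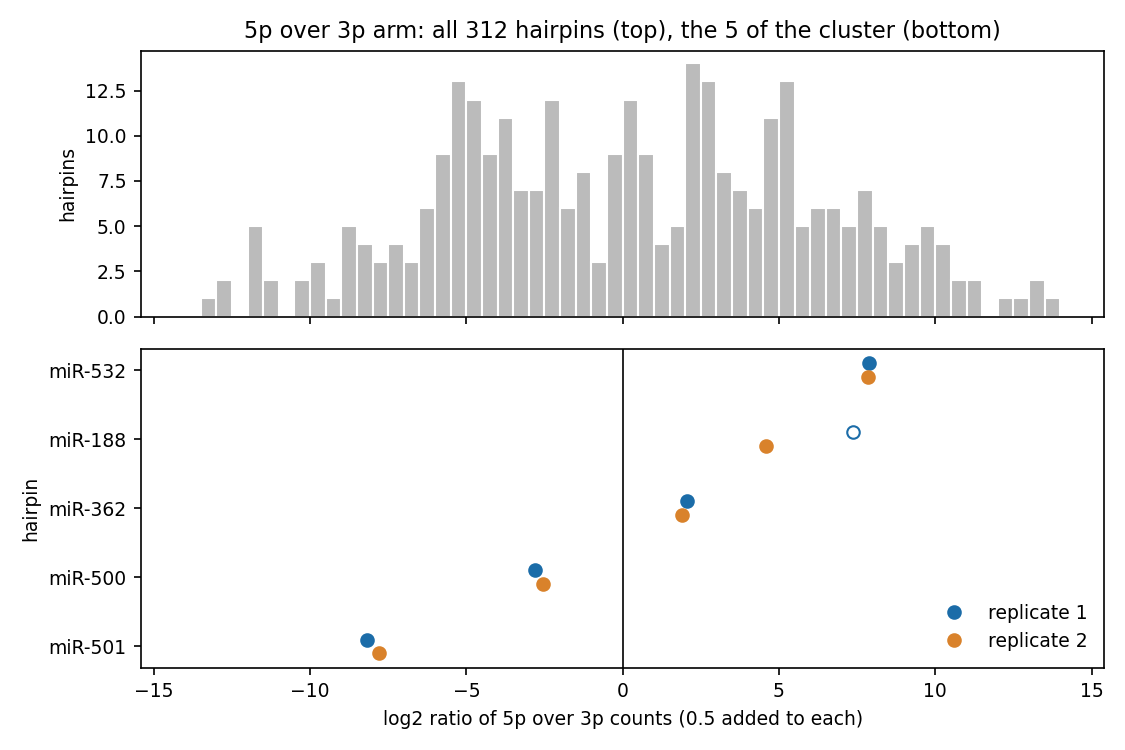
The upper panel counts all 312 tested hairpins by their mean log2 ratio of 5p over 3p reads, and the lower panel gives the ratio of the 5 hairpins of the cluster in replicate 1 (blue) and replicate 2 (orange), with an open circle where one arm had a count of 0 and the position depends on the 0.5 added. Mir532 (7.87 and 7.86) and Mir501 (-8.18 and -7.80) lie on opposite sides, and Mir362 (2.07 and 1.90) lies closest to 0.

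By seed, the analysed arms of the cluster supplied chiefly AUGCCUU and AUGCACC to the newborn retina. The seed AUGCCUU of miR-532-5p stood at 1842 ± 127 CPM. The seed AUGCACC of miR-501-3p and miR-500-3p stood at 521 ± 20.3 CPM, nearly all from miR-501-3p. AUCCUUG, from miR-362-5p and miR-500-5p, stood at 36.7 ± 2.57 CPM. The other seeds of members were AUCCCUU at 8.61 ± 1.73 CPM, CUCCCAC at 7.84 ± 0.578 CPM and AUCCUUU at 2.01 ± 0.468 CPM. Among the sequences compared, these seeds other than ACACACC had no source outside the cluster.

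Of the 7 members with a RefSeq mature sequence, 7 had a most frequent read that started at its first base in both libraries. Their seeds above are therefore those of the molecules that were read most often. The seed of miR-532-5p was taken from its deposited read itself. Of the 8 members, 6 had the same most frequent read in both libraries. The miR-532-5p read of 22 bases carried no mark of a difference from miRBase release 21. The 3′ ends varied more. miR-501-3p was most often read with an added 3′ base that matches the hairpin, as a 23-base read in both libraries. The most frequent miR-500-3p read ended 1 base short of RefSeq in both, from only 9.5 and 14 counts in all.
miR-501-3p read: aATGCACCcgggcaaggatttgg
miR-500-3p read: aATGCACCtgggcaagggttc
miR-362-5p and miR-501-5p differed between the libraries. The most frequent miR-362-5p read matched RefSeq in replicate 1 and was 2 bases longer in replicate 2, with bases present in the hairpin. The most frequent miR-501-5p read carried the substitution A22U in replicate 1 (RefSeq base first, position from the 5′ end, U being T in the read) and was 3 bases longer, along the hairpin, in replicate 2. It came from 14 and 19 counts in all, so either form rests on few reads.
miR-362-5p read, replicate 1: aATCCTTGgaacctaggtgtgaat
miR-362-5p read, replicate 2: aATCCTTGgaacctaggtgtgaatgc
miR-501-5p read, replicate 1: aATCCTTTgtccctgggtgaat
miR-501-5p read, replicate 2: aATCCTTTgtccctgggtgaaaatg

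Among the remaining arms, the 2 counts of miR-188-3p in replicate 2 had a most frequent read that began 1 base before the RefSeq start. Read from that base its seed is CUCCCAC, that of miR-532-3p, whereas the annotated seed is UCCCACA. The form rests on at most 2 reads, and its last base does not match the hairpin. It was not seen in replicate 1, where the arm was at 0.
miR-188-3p read, replicate 2: cCTCCCACatgcagggtttgcat
miR-532-3p read, both replicates: cCTCCCACacccaaggcttgca
miR-500-5p, with 1 and 2 counts, started at its annotated base in both libraries.

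The libraries were then compared for each member, by an exact two-sided binomial test with the expected share from the library totals and adjustment over all 710 miRNAs with at least 10 counts. This compares libraries and not conditions. Between the libraries 2 of 8 members were called, both higher in replicate 2, where 27.7% of the 710 were called. miR-532-5p had a log2 ratio of replicate 2 over replicate 1 of 0.14 (adjusted p = 1.7e-16) and miR-501-3p of 0.078 (adjusted p = 0.0452). Over the 710 the median of this log2 ratio was -0.12, so miR-532-5p lay 0.26 and miR-501-3p 0.20 above it. Scaled by TMM, which moved that median to -0.0018, their log2 ratios were 0.26 and 0.20, with the same 2 members called and 26.1% of the 710. With DESeq2 size factors they were 0.24 and 0.18, again with 2 members called and 26.3% of the 710. Without the minimum of 10 counts 1 member was called, since miR-501-3p then had an adjusted p of 0.0727 in the exact binomial test.

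Over all tested miRNAs, the share called was larger at higher levels. Whether depth decided the call of a member was not tested. At 100 CPM or more 77.8% of 180 miRNAs were called, and both members in that range were among them. At 10 to under 100 CPM 25.9% were called and miR-362-5p was not (log2 ratio -0.15, adjusted p = 0.436). Under 10 CPM 2.61% were called, and 0 of 5 members. Of these, miR-188-5p had the ratio farthest below 0, at -0.41 (adjusted p = 0.243), and miR-500-3p the ratio farthest above, at 0.50 (adjusted p = 0.633). With an unadjusted p below 0.05 there were the same 2 members as with adjustment, miR-532-5p and miR-501-3p. By table totals 6 of the 8 log2 ratios were above 0 and 2 below, and the counting error of 26.7% to 32.4% on the lowest members in replicate 1 leaves their sign undetermined at this depth.

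**Figure D4:**
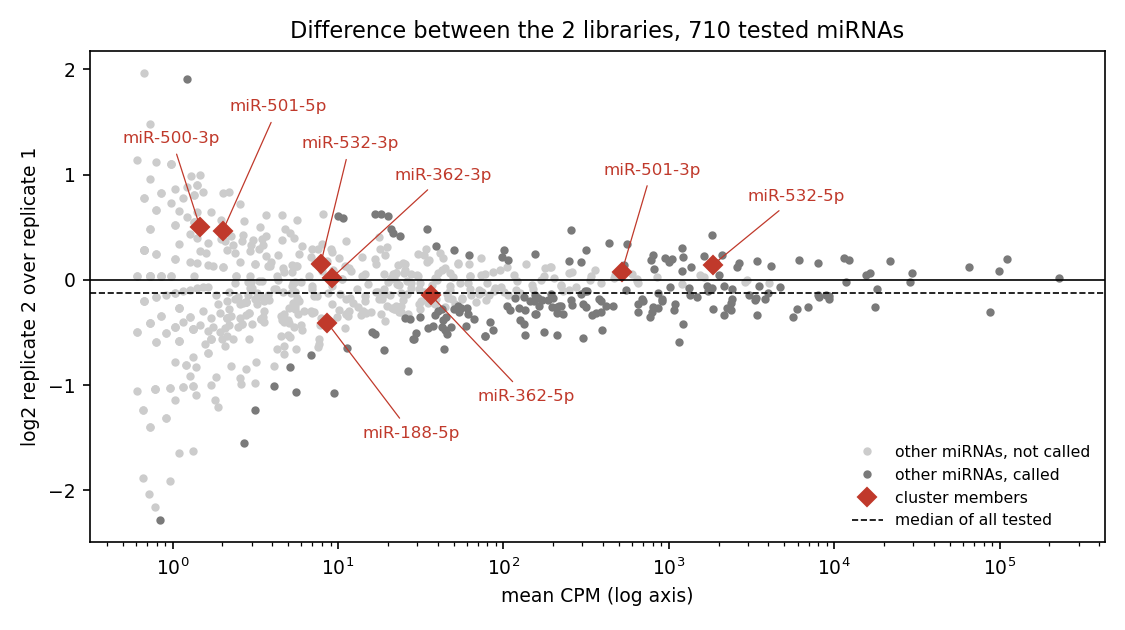
Log2 ratio of replicate 2 over replicate 1 against mean CPM (log axis) for the 710 tested miRNAs, with called miRNAs in dark grey, others in light grey, cluster members as red diamonds and the median of -0.12 as a dashed line. miR-532-5p and miR-501-3p lie at 0.14 and 0.078, above the dashed line, and the members below 10 CPM are spread from -0.41 to 0.50.

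Selected other miRNAs of the X chromosome give the level a setting. They are not a full set, so a place among them is not a place among all X-linked miRNAs. They were taken as 10 lists with 64 arms, matched by name, which count let-7f-1-3p, miR-19b-1-5p and miR-92a-1-5p of hairpin copies outside the X chromosome too. The summed level ran from 2.31 ± 0.207 CPM for the group near Fmr1, known from testis, to 31928 ± 629 CPM for let-7f with miR-98. The lists of let-7f with miR-98 and of miR-106a with miR-363 (12053 ± 136 CPM) lay above the 2427 ± 144 CPM of the 8 analysed Clcn5 members. Their highest arms, let-7f-5p (29520 ± 959 CPM) and miR-92a-3p (11769 ± 106 CPM), also have hairpin copies on other chromosomes, and their counts cannot be assigned to a copy. In the list of let-7f, miR-98-5p was at 2609 and 2145 CPM in replicates 1 and 2, above miR-532-5p in both. The other 8 lists had lower sums, without a test of the difference.

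Of those 8, the sums nearest to the Clcn5 cluster were about 1000 CPM. The list of miR-322, miR-503, miR-351, miR-542 and miR-450, a cluster linked to exit from the cell cycle, summed to 1014 ± 25.7 CPM, and its highest arm, miR-351-5p, was at 295 ± 19.96 CPM. miR-361, which lies in an intron of Chm, summed to 951 ± 3.35 CPM, led by miR-361-3p at 842 ± 11.9 CPM. The highest arms of the next lists were miR-421-3p at 258 ± 30.7 CPM, miR-676-3p at 231 ± 36.9 CPM, miR-652-3p at 186 ± 17.7 CPM and miR-222-3p at 118 ± 9.81 CPM. miR-1298-5p, from an intron of the serotonin receptor gene Htr2c, was at 20.1 ± 5.88 CPM, and miR-881-3p, the highest of the group near Fmr1, was at 1.22 ± 0.367 CPM. The leading arm of the Clcn5 cluster, miR-532-5p, was thus above the leading arm of each of these 8 lists, and miR-501-3p was above all of them except miR-361-3p.

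Over both libraries the miRNAs nearest in level to miR-532-5p were miR-27b-3p, miR-674-3p and miR-744-5p, taken as the smallest distance of log2 CPM over the 2 libraries. miR-27b-3p was at 1807 and 2020 CPM, miR-674-3p at 1873 and 1774 CPM and miR-744-5p at 1961 and 2030 CPM. With 2 libraries of 1 group this likeness is of level alone.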

How the data were processed

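Small RNA of 18 to 30 nt from retina at postnatal day 0 was cut from a gel, and libraries were made by adapter ligation from 1 µg of total RNA, per the labels' protocols. Reads were written with bcl2fastq 2.17.1.14, per the submitters' processing notes. No aligner, counter or genome build is named for the counts (not given in the sources used here). The deposited estimated counts per mature miRNA were unscaled, and 6.77% (replicate 1) and 5.96% (replicate 2) of values were not whole, so counts were rounded for tests. The deposited CPM values were scaled by the authors to a library total of their own. The deposited read table gave the most frequent sequence per miRNA, with marks where it departs from miRBase release 21, per the file headers.

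CPM was recomputed here from the table totals (8337903 and 8118208 counts) and was 1.13 times the deposited CPM. Exact binomial 95% intervals cover counting error only, since amplified reads are not independent molecules. Ratios had 0.5 added to each count. All tests were exact two-sided binomial tests with Benjamini-Hochberg adjustment at 0.05. The adjustment ran over all hairpins, all member pairs or all miRNAs with at least 10 counts. The simulated data on which the tests were tried held counting error alone, so they do not show how the tests behave under wider variation. With 1 group there was no contrast for a quasi-likelihood test. TMM scaling used edgeR 4.0.16 and size factors DESeq2 1.42.0 in R 4.3.3, and other steps SciPy 1.17.1, statsmodels 0.14.6, pandas 2.3.3, NumPy 2.4.6 and matplotlib 3.10.9 under Python 3.11.15. Named miRNAs were the members, the other arms of their hairpins, seed relatives, the highest arm of each X-linked list and the 3 miRNAs nearest to the highest member. Members and lists were chosen with earlier results of these data known. Alternatives were the scaling, the added count, the count minimum, the denominator and each library alone.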

Additional observations from a re-analysis of the deposited data

How the results depend on the processing

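No paired analysis was possible because there was 1 group. The number of the cluster's hairpins called for their arms and the number of member pairs called kept within 1.5 times of the values in the report when 1 was added in place of 0.5, and the arm count also without the count minimum. The median of the members, taken in each library and averaged, was 8.08 by the deposited CPM in place of 9.11, since the authors' total is larger. With the 10 highest miRNAs left out of the total, the share of the analysed members was 0.824% in place of 0.243%, a change of denominator. Without the minimum of 10 counts, 1 member was called between the libraries in place of 2, because more miRNAs entered the adjustment and miR-501-3p then had an adjusted p of 0.0727. In single libraries 2 ratios of neighbours that were not called changed sign: miR-362-3p over miR-188-5p was -0.11 without replicate 2 and 0.32 without replicate 1, and miR-188-5p over miR-532-3p was -0.16 without replicate 1 and 0.40 without replicate 2. Depth limits miR-501-5p, miR-500-3p and the arms below them, whose counts were 19 or fewer in each library.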
